A study of Sus scrofa with 21 samples.

Results

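The 10 genes described here encode the transcription factors of the heart muscle programme: GATA4, GATA6, TBX5, TBX20, HAND1, HAND2, MEF2A, MEF2C, NKX2-5 and MEIS1. They were taken by gene symbol from the deposited count table of 25880 genes, where each symbol was found, and all 10 passed the filter on low counts that left 15359 genes for testing. RNA came from pig hearts, 1 library per pig and 21 pigs in all. The groups with a myocardial infarction (MI) were collected at postnatal days 7 (n = 3), 14 (n = 3) and 28 (n = 2), each after a permanent tie of the left descending coronary artery on day 1, and their tissue came from the border of the ischaemic zone. The naive groups were collected at days 1 (n = 2), 3 (n = 2), 7 (n = 3), 14 (n = 3) and 28 (n = 3), from the matching region of the heart. The sample titles call these pigs naive, while the protocol describes sham surgery without the tie, and which of the descriptions holds was not settled here. All pigs were hand-reared in an incubator. Sex, litter and library batch are not stated in the labels, and replicate numbers only name the pigs.

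These factors bind one another and act in combination on the same heart enhancers. GATA4 and GATA6 are zinc finger proteins that bind GATA motifs, TBX5 and TBX20 are T-box proteins, and NKX2-5 is the homeodomain factor that marks the heart field. HAND1 and HAND2 are basic helix-loop-helix proteins that predominate in the left and the right ventricle of mouse embryos, MEF2A and MEF2C are MADS-box activators of muscle genes that class II histone deacetylases hold in check, and MEIS1 is a homeodomain factor that in mice promotes the withdrawal of newborn heart muscle cells from the cell cycle.

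Levels are given as CPM, the count scaled to a library of common size, with TMM factors (trimmed mean of M values, which corrects for a few genes taking a large share). Total counts per library were 37002909 to 95559841. The members other than MEIS1 had 531 to 26557 reads in a library, and MEIS1 had 63 to 1040. On day 28 the TMM factors were 0.818 and 1.19 in MI hearts, against 1.06, 0.813 and 1.04 in naive hearts. Whether groups of that age overlap can therefore depend on this scaling. Among the libraries, 4 carried a transcript (ENSSSCG00000018073) at 40.1 to 94.8 CPM that the other 17 held at no more than 0.135 CPM. They were replicate 2 of MI day 28, replicate 3 of MI day 7, replicate 3 of naive day 14 and replicate 2 of naive day 28. The tissue label held by its markers: 8 of 10 cardiomyocyte markers had counts and summed to 40431 to 106105 CPM in every library, while TNNI3 was listed at 0 throughout and TTN was not analysed here.

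Promoter sequences were read from the reference genome for the gene called below (HAND1) and for the member whose day 28 difference had the other sign (MEIS1). Each run holds the 250 bases before and the first 50 bases of the gene as RefSeq annotates it on Sscrofa11.1, in the direction of transcription, and capitals mark matches to the motifs listed after them. The runs lie at chr16:68679727-68680026 on the plus strand (HAND1) and chr3:75625806-75626105 on the minus strand (MEIS1).
HAND1: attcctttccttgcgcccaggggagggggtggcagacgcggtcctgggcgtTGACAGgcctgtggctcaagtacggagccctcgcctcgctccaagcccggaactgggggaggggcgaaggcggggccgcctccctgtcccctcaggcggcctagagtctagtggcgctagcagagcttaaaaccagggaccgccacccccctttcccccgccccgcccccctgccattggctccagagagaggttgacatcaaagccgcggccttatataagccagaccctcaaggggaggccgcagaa
MEIS1: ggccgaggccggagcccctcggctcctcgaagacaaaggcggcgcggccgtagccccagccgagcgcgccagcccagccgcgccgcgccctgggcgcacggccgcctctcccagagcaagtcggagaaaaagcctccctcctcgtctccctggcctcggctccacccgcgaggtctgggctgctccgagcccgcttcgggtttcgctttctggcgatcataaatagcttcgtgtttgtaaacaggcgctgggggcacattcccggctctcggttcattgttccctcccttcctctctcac

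The motifs searched, on both strands, were the GATA site (AGATAA with its variant AGATAG, and TGATAA with its variant TGATAG), the NKX2 element AAGTG, the T-box site AGGTGT, the E-box CANNTG to which helix-loop-helix proteins bind, the MEIS site TGACAG and the MEF2 element. In HAND1 the capitals mark 1 MEIS site that starts at position -199 from the gene start. In MEIS1 none of the motifs was found. A MEIS site was in 4 of 10 member promoters (TBX5, HAND1, MEF2C and NKX2-5), against 13.0% of 19556 promoters of the same length. GATA sites were in 2 of 10 members against 22.5%, NKX2 elements in 2 of 10 against 40.4%, and E-boxes in 5 of 10 against 67.8%. In MEF2C the NKX2 element overlaps an E-box. T-box sites and MEF2 elements were in 0 of 10, against 12.1% and 2.87%. A match is a match of letters and was not tested as a binding site. GC content was 66.7% in the HAND1 run and 67.7% in the MEIS1 run, against a median of 58.7% over all promoters.

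Per kilobase of exon, the members spanned a wide range of levels. MEF2A was the highest, at a median of 84.8 CPM per kilobase over the 21 libraries, followed by NKX2-5 at 68.0, HAND2 at 54.2, GATA6 at 51.9 and GATA4 at 28.5. HAND1 stood at 19.9, MEF2C at 15.2, TBX5 at 12.9, TBX20 at 7.6 and MEIS1 at 0.548 CPM per kilobase. These levels divide by all RefSeq exon bases of a gene, 2711 for MEF2A (2 transcripts) and 8719 for MEF2C (49 transcripts). The order therefore depends on the annotation. Without the division, the median was 230.0 CPM for MEF2A, 227.6 CPM for GATA6 and 132.5 CPM for MEF2C. The exons of GATA6, TBX5, HAND1 and MEF2C overlap a gene on the other strand. The sources used here do not state whether counting used strand, so reads of such partners cannot be told apart.

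The level of MEIS1 in the highest library was 18.3 times that in the lowest. The same ratio was 5.98 for TBX20, 5.46 for HAND1, 3.1 for TBX5 and 2.03 to 2.65 for the other 6 members. Within groups, the SD of log2 CPM was 0.217 for NKX2-5, the steadiest member, and 0.887 for MEIS1, against a median of 0.384 over all tested genes. MI hearts on day 28 had the lowest mean of the 8 groups for 7 of 10 members: GATA4, TBX20, HAND1, HAND2, MEF2A, MEF2C and NKX2-5. TBX5 was lower in naive day 1 hearts and GATA6 in MI day 14 hearts, and MEIS1 was highest in MI day 28 hearts. Most neighbours in these orders overlapped. HAND1 and NKX2-5 each had 1 pair of adjacent groups without overlap, MI day 28 below naive day 1. The other 8 members had 0 of 7. That pair is 2 against 2 pigs, and the share of all genes without overlap there was not counted. For NKX2-5 the gap was narrow, with 84.5 CPM in the higher MI heart against 86.1 CPM in the lower naive heart.

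**Figure D1:**
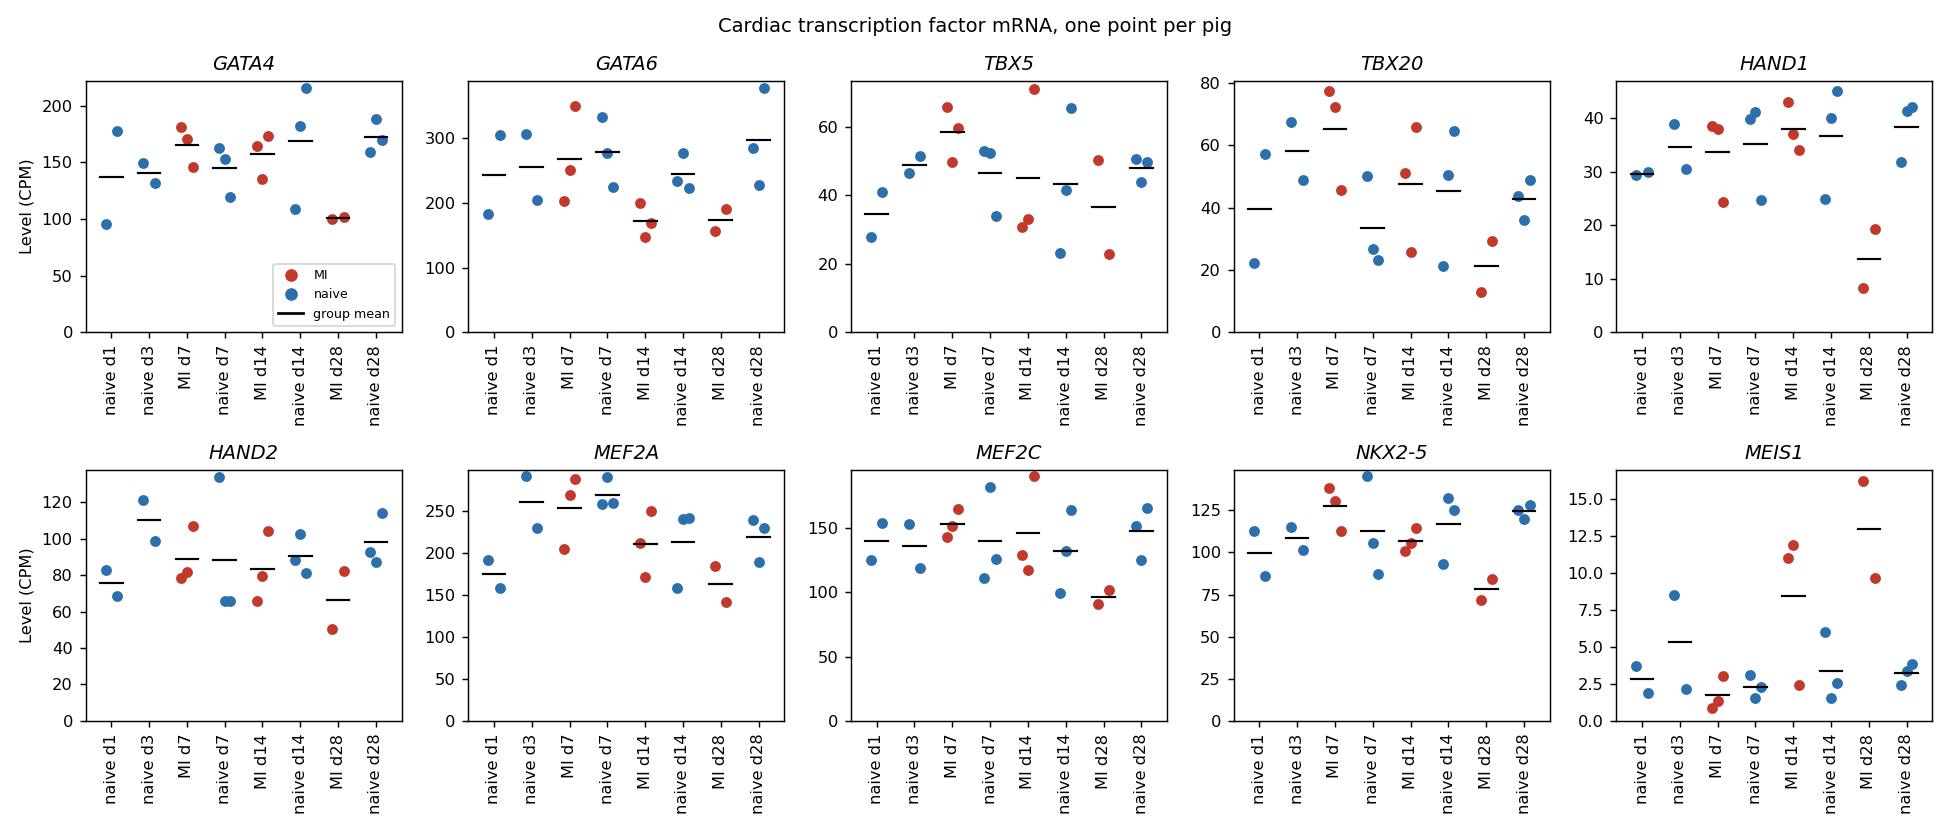
Level of each member in CPM, 1 point per pig and a line at each group mean, for MI (red) and naive (blue) hearts in order of age. HAND1 in both MI day 28 hearts (8.25 and 19.2 CPM) lies under every other library.

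The main comparison asks how the border zone differed from naive hearts 28 days after birth. HAND1 was the only member that passed the test, and it fell. Of the 10 log2 fold changes, 9 were below 0, with a median of -0.64 against 0.0 over all tested genes, and MEIS1 alone was above 0. TBX5 crossed 0 without MI replicate 2, which leaves 8 below 0. The test is edgeR's quasi-likelihood F-test over 15359 genes with Benjamini-Hochberg adjustment, and a gene is called at an adjusted p under 0.05. It called 1 of 10 members, beside 6.86% of all genes (1053 genes, 4.47% higher and 2.38% lower).

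HAND1 (ENSSSCG00000031080, chr16:68679977-68683346, plus strand) had 8.25 and 19.2 CPM in MI hearts, against 31.8, 41.4 and 42.1 CPM in naive hearts on day 28. Both MI values lie below all 3 naive values, and below the lowest naive library of any age (24.7 CPM). The log2 fold change was -1.49 (SE 0.34, edgeR adjusted p = 0.026), or 0.357 times the naive level. The call rests on single libraries: it was lost without MI replicate 1 (-0.98, adjusted p = 0.111), without naive day 28 replicate 2 (-1.41, adjusted p = 0.0603) or replicate 3 (-1.42, adjusted p = 0.0876), and with the 5 libraries fitted alone (-1.42, adjusted p = 0.18). Without MI replicate 2 the difference was larger, at -2.19. The 4 libraries that share the extra transcript include MI replicate 2, and without them the difference was -2.15. Both of these fits leave MI replicate 1 as the only MI heart of day 28, so they are not separate checks.

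Its paralog HAND2 (ENSSSCG00000031537, chr14:16460089-16462979, plus strand) had 50.4 and 82.6 CPM in MI hearts, against 92.9, 87.2 and 114.0 CPM in naive hearts. The groups did not overlap, but MI replicate 2 lay close to the lowest naive heart, and the difference did not pass the test. In each library the ratio of HAND2 to HAND1 counts needs no scaling. It was 6.11 and 4.31 in MI hearts, against 2.92, 2.11 and 2.71 in naive hearts of day 28, a difference of 1.01 on the log2 scale with no overlap (exact permutation test, two-sided, p = 0.1, the smallest that 2 against 3 pigs allow). Elsewhere the ratio was 1.53 to 3.56, apart from 4.42 in MI day 7 replicate 3. Over the 3 ages together, 4 ratios of paired family members were tested with MI labels permuted within each age (4000 regroupings). None passed: HAND2 over HAND1 had p = 0.263 (adjusted p = 0.525), GATA6 over GATA4 p = 0.21 (adjusted 0.525), MEF2A over MEF2C p = 0.487 (adjusted 0.649) and TBX5 over TBX20 p = 0.954 (adjusted 0.954), each from an exact permutation test, two-sided.

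NKX2-5 (ENSSSCG00000036285, chr16:51086014-51089165, plus strand) had 71.6 and 84.5 CPM in MI hearts, against 125.3, 119.9 and 128.2 CPM in naive hearts. After TMM scaling the naive values are close together and both MI values lie below them. Without it the groups would overlap: MI replicate 2 had 4990 reads of 49764677, and naive replicate 2 had 5033 of 51626718. The log2 fold change was -0.67 (SE 0.21) and missed the threshold in edgeR (adjusted p = 0.06), while DESeq2 called it (adjusted p = 0.0356).

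GATA4 (ENSSSCG00000022383, chr14:14858470-14938156, plus strand) had 100.2 and 101.7 CPM in MI hearts, against 158.8, 188.2 and 169.8 CPM in naive hearts, a log2 difference of -0.77 (SE 0.27; adjusted p = 0.0879 in edgeR). GATA6 (ENSSSCG00000003702, chr6:107282709-107314725, plus strand) had 156.1 and 189.9 CPM, against 285.6, 227.6 and 376.9 CPM, a log2 difference of -0.78 (SE 0.3; adjusted p = 0.105 in edgeR). Neither pair of groups overlapped and neither gene was called. The ratio of GATA6 to GATA4 counts was 1.56 and 1.87 in MI hearts, against 1.8, 1.21 and 2.22 in naive hearts.

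MEF2C (ENSSSCG00000014149, chr2:96122407-96296927, minus strand) had 90.8 and 102.2 CPM in MI hearts, against 151.6, 125.5 and 165.8 CPM in naive hearts, a log2 difference of -0.61 (SE 0.26; adjusted p = 0.142 in edgeR). MEF2A (ENSSSCG00000028771, chr1:138398270-138508639, plus strand) had 184.3 and 142.2 CPM, against 239.5, 189.2 and 229.7 CPM. Again the groups did not overlap, although MI replicate 1 came close to the lowest naive heart for MEF2A.

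The T-box factors differed between the MI hearts themselves, as did HAND1 (8.25 and 19.2 CPM). TBX20 (ENSSSCG00000016662, chr18:38635603-38681690, plus strand), which adult heart muscle needs in mice, had 12.9 and 29.3 CPM in MI hearts, against 43.6, 36.1 and 48.7 CPM in naive hearts. TBX5 (ENSSSCG00000009867, chr14:37772205-37826015, plus strand), which in mice drives conduction and atrial genes, had 50.4 and 22.9 CPM, against 50.5, 43.9 and 49.7 CPM. MI replicate 1 was the lowest of the 5 libraries for TBX20 but level with the naive hearts for TBX5, whose groups overlap, and the ratio of TBX5 to TBX20 counts was 3.89 and 0.782 in MI hearts, against 1.16, 1.22 and 1.02 in naive hearts. The log2 fold change of TBX5 was -0.39, and it turned to 0.09 without MI replicate 2.

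MEIS1 (ENSSSCG00000039161, chr3:75485024-75625855, minus strand) had 16.2 and 9.66 CPM in MI hearts, against 2.43, 3.38 and 3.86 CPM in naive hearts. Both MI values lie above all naive values of that age. The highest naive library of any age had 8.5 CPM (day 3 replicate 1), close to the lower MI value. The log2 fold change was 2.0 (SE 0.71), not called by edgeR (adjusted p = 0.0872) and called by DESeq2 (adjusted p = 0.0307). In all, the MI and naive groups of day 28 did not overlap for 8 members that were lower in MI, beside 21.4% of all genes, and for 1 that was higher, beside 16.4%. At an unadjusted p under 0.05 stood 6 of 10 members and 27.0% of all genes.

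**Figure D2:**
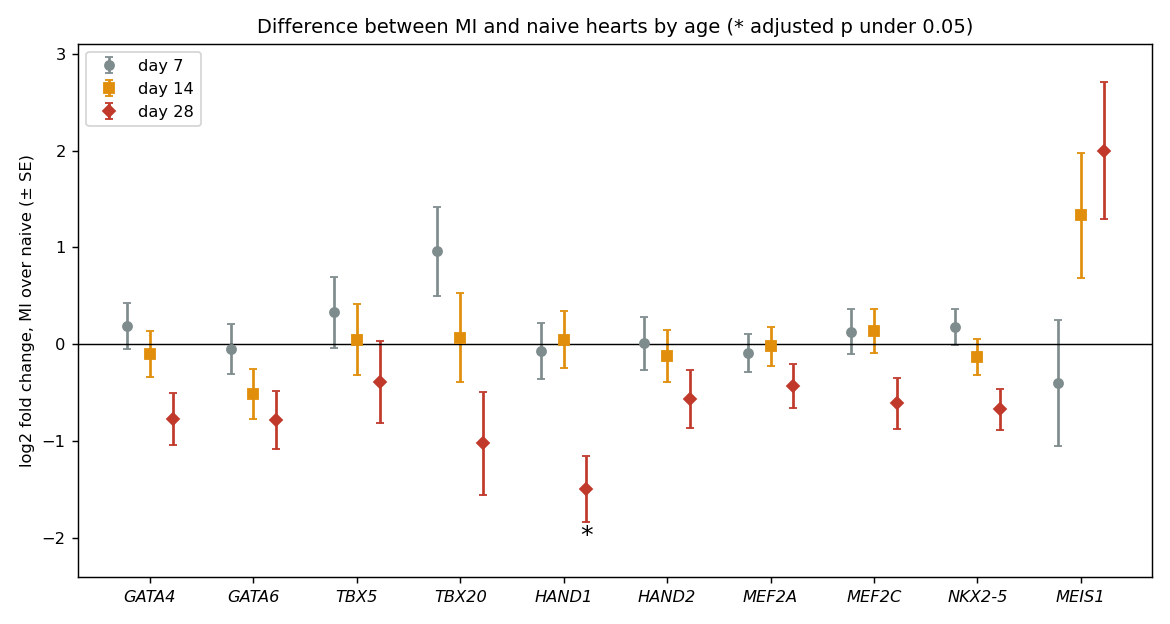
Log2 fold change of MI over naive hearts with its SE for each member at days 7, 14 and 28, where a star marks an adjusted p under 0.05. The star stands on HAND1 at day 28 (-1.49), and MEIS1 is the single member above 0 at that age.

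On day 28 the RNA of markers of several cell types also differed between MI and naive hearts, and for several lists the 2 MI hearts differed from each other. In bulk RNA, fewer heart muscle cells and less RNA per cell cannot be told apart. The 8 cardiomyocyte markers with counts summed to 51754 and 40431 CPM in MI hearts, against 80653, 92916 and 88257 CPM in naive hearts, and 2 of the 8 were called lower (ACTC1 and MYL2). The 10 fibroblast markers summed to 1776 and 20220 CPM in MI hearts, against 3768 to 6505 CPM, with 1 called higher (TCF21). The 10 macrophage markers summed to 336 and 3792 CPM in MI hearts, against 75.2 to 397 CPM, with 7 called higher, so that MI replicate 2 held most of both. The 6 adipocyte markers summed to 668 and 143 CPM in MI hearts, against 133 to 244 CPM, high in MI replicate 1, and 3 of the 5 tested were called higher. Of 10 smooth muscle and pericyte markers 4 were called higher (LMOD1, ACTA2, MYH11 and TAGLN). The list summed to 1842 and 880 CPM in MI hearts, against 1109 to 1165 CPM. By the sum, MI replicate 1 lay above the naive hearts and replicate 2 below them. By the mean log2 CPM of the list both lay above, at 6.41 and 5.52 against 5.29 to 5.39. Epicardial markers summed to 40.8 and 152 CPM in MI hearts, against 32.4 to 41.7 CPM, with 1 of 5 tested called higher (WT1, list median 2.77). Their mean log2 CPM was 1.96 and 3.38 in MI hearts, against at most 0.57 in naive hearts. Of 9 tested atrial markers 2 were called higher (NR2F1 and NR2F2), with sums of 127 and 349 CPM in MI hearts, against 157 to 616 CPM. None of the 9 endothelial, 4 sympathetic and Schwann cell or 4 skeletal muscle markers tested was called by edgeR. Their part in the members' differences was not tested.

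Values set against the cardiomyocyte markers of the same library are given as a description, since the subtraction moves every gene of a library by the same amount. The mean log2 CPM of these markers was 11.96 and 11.61 in MI hearts, against 12.69, 12.87 and 12.7 in naive hearts, a difference of -0.97. With that mean subtracted, the median MI minus naive difference of the members was 0.33, where the same difference of means without subtraction was -0.64. Over all 15359 tested genes the median was 0.96 with the subtraction and -0.01 without it. The members' median lay below that of all genes, by a gap that the subtraction cannot change. After subtraction 8 of 10 members and 93.5% of genes were above 0. HAND1 stood at -0.62 with the subtraction and -1.59 without it, TBX20 at -0.15 and -1.12, and the groups of both then overlapped. MEF2A (0.54) and MEIS1 (2.92) were higher in MI without overlap, as were 68.8% of all genes. On day 14 the marker difference was -0.29, and after subtraction the median was 0.32 for the members and 0.28 for all genes. HAND1 (0.38) and MEF2A (0.28) were then higher in MI without overlap, as were 6.54% of all genes. On day 7 the marker difference was 0.07, and the medians were 0.05 and -0.05.

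**Figure D3:**
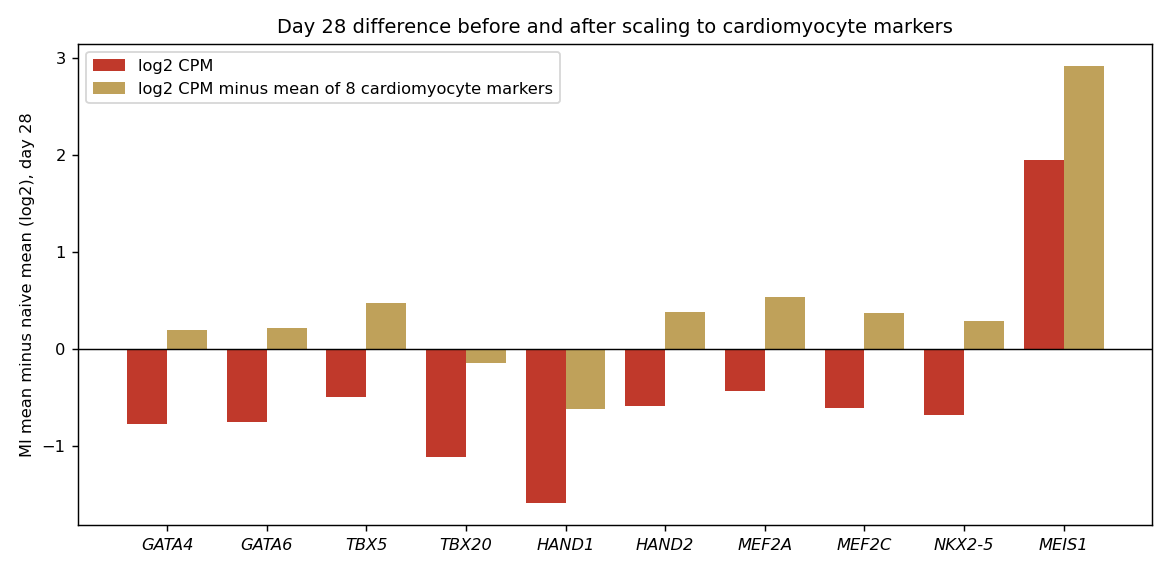
MI mean minus naive mean on day 28 for each member, as log2 CPM (red) and after subtracting the mean log2 CPM of 8 cardiomyocyte markers in each library (tan). The subtraction shifts all members by the same amount: HAND1 is at -0.62 with it and -1.59 without it.

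At the earlier ages no member was called. On day 7 the test called 0 of 10 members and 0% of all genes, with 0 members and 12.4% of genes (1905) at an unadjusted p under 0.05. DESeq2 called 0 members and 263 genes. No member was without overlap, beside 13.9% of genes higher and 10.4% lower. TBX20 had the smallest p (0.0522, edgeR, adjusted p = 0.406), with 77.4, 72.4 and 45.6 CPM in MI hearts, against 50.1, 26.8 and 23.3 CPM in naive hearts. HAND1 on that day had 38.5, 38.0 and 24.3 CPM in MI hearts, against 39.8, 41.1 and 24.7 CPM in naive hearts. The groups overlap almost wholly, and the lowest library of each group lies well under the others.

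On day 14 the test called 0 of 10 members and 0% of genes, with 0 members and 5.35% of genes at an unadjusted p under 0.05, while DESeq2 called 0 members and 14 genes. GATA6 was the 1 member without overlap, beside 4.49% of genes lower in MI (and 3.73% higher): it had 200.1, 146.9 and 169.2 CPM in MI hearts, against 234.3, 277.7 and 222.7 CPM in naive hearts. Its difference did not pass (unadjusted p = 0.0663, edgeR adjusted p = 0.965). MEIS1 had 11.0, 11.9 and 2.42 CPM in MI hearts, against 6.01, 1.53 and 2.54 CPM in naive hearts, so that replicates 1 and 2 were high, above all naive hearts of that age, and replicate 3 was level with them.

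Averaged over days 7, 14 and 28, 0 of 10 members were called, beside 4.43% of genes (681), and DESeq2 called 0 members and 1639 genes. At an unadjusted p under 0.05 stood 3 members and 23.1% of genes (3555). They were GATA6 at -0.45 (SE 0.16, edgeR adjusted p = 0.105), HAND1 at -0.5 (SE 0.18, adjusted p = 0.107) and MEIS1 at 0.97 (SE 0.39, adjusted p = 0.145). Without MI day 28 replicate 2, which leaves replicate 1 alone in that group, HAND1 stood at -0.74.

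Whether the MI difference itself changed with age was tested as the day 28 difference minus the day 7 difference. It called 0 of 10 members, beside 0.013% of genes (2), and DESeq2 called 0 members and 695 genes. The members' median was -0.74 against -0.05 over all genes, and 6 of 10 members stood at an unadjusted p under 0.05, beside 19.0% of genes. Among the members TBX20 had the lowest value, at -1.98 (SE 0.7, edgeR adjusted p = 0.162), then HAND1 at -1.42 (SE 0.44, adjusted p = 0.136). GATA4 stood at -0.96 (SE 0.36, adjusted p = 0.177), NKX2-5 at -0.85 (SE 0.28, adjusted p = 0.149) and MEF2C at -0.74 (SE 0.35, adjusted p = 0.256). MEIS1 had the other sign, at 2.41 (SE 0.96, adjusted p = 0.196). HAND1 stood at -2.1 without MI day 28 replicate 2 and at -2.24 without the 4 libraries that share the extra transcript. Both fits leave replicate 1 as the only MI heart of day 28.

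**Figure D4:**
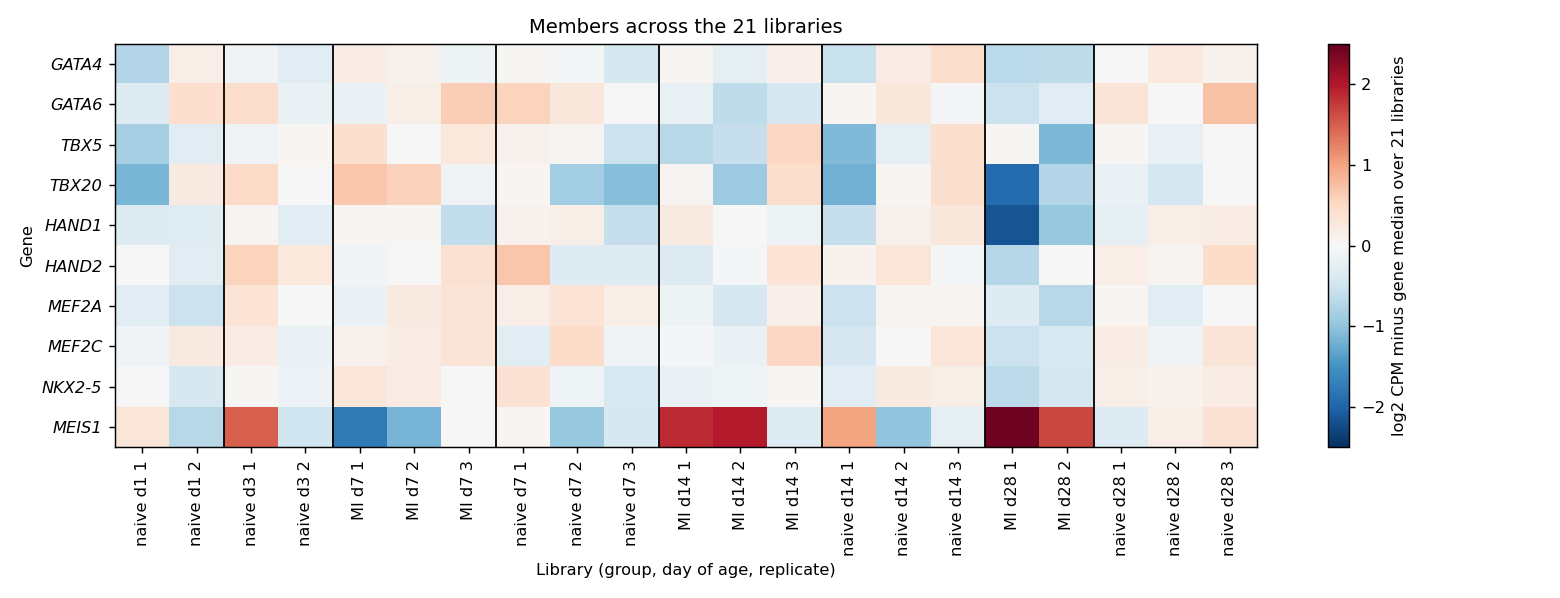
Log2 CPM of each member minus its median over the 21 libraries, with libraries in columns by group and age. MI day 28 replicate 1 is dark blue for TBX20 (12.9 CPM) and HAND1 (8.25 CPM), and MEIS1 is dark red there and in 3 other MI libraries.

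In naive hearts no difference between ages passed the test for any member over days 1 to 28. A test in edgeR for any difference among the 5 ages called 0 of 10 members and 0% of genes, and 663 genes stood at an unadjusted p under 0.05. The smallest unadjusted p of a member in that fit across all genes was 0.107 (edgeR), and DESeq2 called 0 members and 57 genes. MEF2A had the clearest early difference, with 259.1, 290.5 and 259.6 CPM on day 7, against 191.9 and 158.4 CPM on day 1. It was the 1 member without overlap, beside 11.8% of genes that were higher. Its log2 fold change was 0.62 (SE 0.23, edgeR adjusted p = 0.882), and 0 of 10 members and 0% of genes were called (835 genes at an unadjusted p under 0.05, and 12 by DESeq2).

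On day 28 MEF2A had 239.5, 189.2 and 229.7 CPM, below each of its day 7 values and again the 1 member without overlap, beside 7.76% of genes that were lower (and 10.6% higher). That comparison called 0 of 10 members and 0% of genes in edgeR (1103 genes at an unadjusted p under 0.05, and 57 by DESeq2). Between day 28 and day 1, all 10 differences were above 0, with a median of 0.32 against 0.04 over all genes, and 4 members did not overlap (TBX5, HAND1, HAND2 and NKX2-5), beside 12.6% of genes. None was called, and nor was any gene (0%, with 809 genes at an unadjusted p under 0.05 in edgeR and 0 called by DESeq2).

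The other genes of the programme were read from lists. Beside the counts of each list, 4.47% of all genes were called higher and 2.38% lower on day 28. Over the 3 ages together 4.43% were called in either direction. The genes named from the lists were not followed with libraries left out, where the day 28 calls over all genes became 17 to 1370. Of 29 tested cardiac regulators, 2 rose and 1 fell on day 28 (median 0.14). FOXC1, a forkhead factor of mesenchyme, had 7.38 and 2.98 CPM in MI hearts, against 1.94, 1.19 and 0.694 CPM, and rose by 2.02 on the log2 scale (SE 0.47, edgeR adjusted p = 0.0264). NR2F2, a nuclear receptor of atrial muscle and veins, had 36.9 and 60.8 CPM, against 27.3, 29.1 and 13.2 CPM, and rose by 1.08 (SE 0.28, edgeR adjusted p = 0.0362). TEAD1, the DNA partner of the growth regulator YAP, had 23.0 and 21.1 CPM, against 63.9, 66.5 and 62.3 CPM, and fell by 1.54 (SE 0.39, edgeR adjusted p = 0.0329). Both MI hearts were thus at about the same level of TEAD1. PBX2, a homeodomain partner of MEIS proteins, was the 1 regulator called over the 3 ages together, at 0.38 (SE 0.08, edgeR adjusted p = 0.0219).

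Of 12 repressors and coactivators of MEF2, 1 rose on day 28 (median 0.07): the class II deacetylase HDAC7, also made by endothelium, with 87.0 and 63.7 CPM in MI hearts, against 37.0, 47.0 and 27.1 CPM (1.03, SE 0.27, edgeR adjusted p = 0.0355). Of 22 tested genes on a list of cardiac target genes, 3 fell and 0 rose (median -0.9). Whether the members drive these genes here was not tested. CKMT2, the mitochondrial creatine kinase, had 513 and 510.0 CPM in MI hearts, against 1271, 2164 and 1734 CPM (-1.75, SE 0.44, edgeR adjusted p = 0.0312). The cardiac actin gene ACTC1 stood at -1.48 (SE 0.37, edgeR adjusted p = 0.0315) and the ventricular myosin light chain gene MYL2 at -1.29 (SE 0.35, adjusted p = 0.0409), and both are also among the cardiomyocyte markers. Over the 3 ages together 4 of the 22 fell: CKMT2, ACTA1, XIRP2 and MYL2.

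MEIS1 is linked in mice to inhibitors of cyclin-dependent kinases, and 0 of 6 tested were called in any comparison with edgeR (median 0.42 on day 28, when CDKN2C, at -1.43, was the 1 gene of the 6 at an unadjusted p under 0.05). CDKN1A had 28.1 and 4.16 CPM in MI hearts, against 10.7, 8.48 and 15.1 CPM in naive hearts of day 28, high in MI replicate 1 and low in replicate 2. CDKN2B had 1.35 and 1.4 CPM, against 1.26, 1.38 and 0.626 CPM. On days 7 and 14 edgeR called 0 of all 15359 genes, so that none of these 4 lists could hold a call. The same holds for the comparisons between naive ages.

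Some genes followed the members closely across the 21 libraries, as a description over libraries that share depth and tissue make-up. By Pearson r of log2 CPM, GATA4 was most like SPECC1L (0.931), PCDH7 (0.926) and VCL (0.915), and GATA6 most like SEPSECS (0.788), PLD1 (0.771) and AGXT (0.77). TBX5 was most like LATS2 (0.906), PSKH1 (0.894) and MYOCD (0.894), and TBX20 most like SLC4A1AP (0.921), TRIO (0.907) and IGSF3 (0.901). LATS2 is a kinase of the growth-restraining Hippo pathway, and MYOCD is a coactivator of heart and smooth muscle genes. HAND1 was most like SYNPO2L (0.905), CDC23 (0.903) and HLTF (0.882), whereas HAND2 was most like the adrenergic receptor gene ADRB1 (0.805), PAXIP1 (0.783) and OBSL1 (0.757). MEF2A had GTF2H1 (0.89) and NAP1L4 (0.854), and MEF2C had the muscarinic receptor gene CHRM2 (0.906), FAR1 (0.887) and BMPR1A (0.881). ADRB1 and CHRM2 receive the sympathetic and the vagal signals that set heart rate and force. NKX2-5 had NCBP3 (0.813), OBSL1 (0.802) and PIGQ (0.77), and MEIS1 had KCNK5 (0.822), SOST (0.816) and TTC25 (0.792). The nearest genes differed between HAND1 and HAND2, and OBSL1 was shared by HAND2 and NKX2-5.

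**Figure D5:**
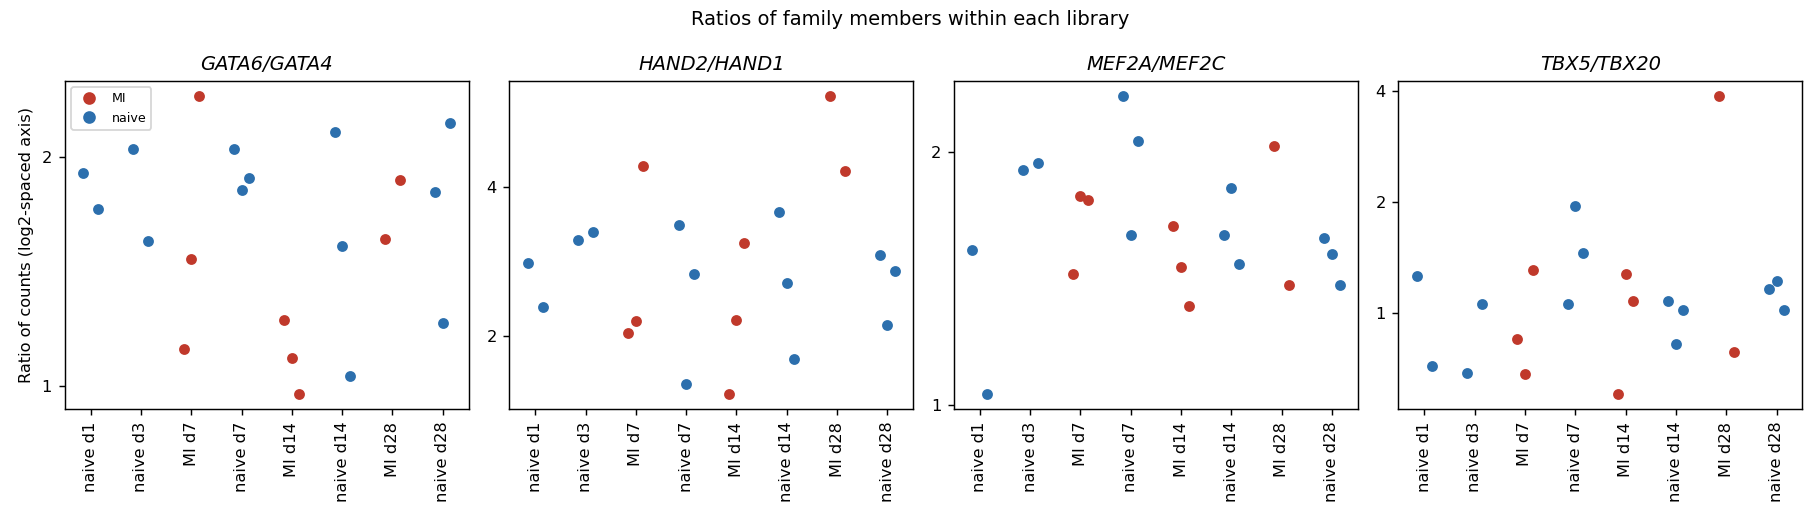
Ratio of counts of 2 family members within each library, on log2-spaced axes, for MI (red) and naive (blue) groups in order of age. HAND2 over HAND1 is 6.11 and 4.31 in the MI day 28 hearts and 4.42 in 1 MI day 7 heart, above all other libraries, while GATA6 over GATA4 overlaps at each age.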

How the data were processed

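Total RNA of pig heart was sequenced by the submitters, 1 library per pig. The authors deposited raw counts per Ensembl gene. Per the submitters' processing notes, the tools were Trim Galore, STAR 2.5.2, HTSeq 0.6.1 and DESeq2, on Sscrofa11.1. Annotation release and strand setting were not given in the sources used. A filter on low counts, filterByExpr in edgeR 4.0.16, left 15359 of 25880 genes. A quasi-likelihood model with 1 mean for each of the 8 groups was fitted to all 21 libraries with TMM scaling (glmQLFit, robust, 13 residual degrees of freedom, biological coefficient of variation 0.373), and contrasts were tested two-sided with Benjamini-Hochberg adjustment over all tested genes. SE was derived from the F statistic. The fit was also run on simulated counts drawn from its own estimates of spread. Such counts hold no library batch, so they cannot show how reliable the day 28 calls are. Alternatives were DESeq2 1.42.0, its size factors, no filter, the groups compared alone, and libraries left out. Symbols came from the file (17947), with 807 added from a reference table. Members are named in full where called or at an unadjusted p under 0.05, and wider lists by up to 6 called genes. For each member the 3 genes most like it are named, except 1 gene that is not reported here. The members and lists were chosen with earlier results of these data known. The cardiomyocyte scaling and the ratios were chosen after seeing the data. Counting error and spread between pigs both enter the p-values, and groups of 2 or 3 pigs limit the precision.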

Additional observations from a re-analysis of the deposited data

How the results depend on the processing

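Among the log2 fold changes given for members, none changed sign under the alternatives run, apart from TBX5 on day 28 (not called). TBX5 stood at 0.09 without MI day 28 replicate 2 and at 0.02 without the 4 libraries. Genes of the wider and marker lists, the ratios and the values set against cardiomyocyte markers were not run under these alternatives. For day 28, the main count of 1 called member became 3 with DESeq2 (HAND1, NKX2-5 and MEIS1) and 0 with the groups compared alone, and it was 0 to 2 with single libraries left out: 0 without MI day 28 replicate 1 or naive day 28 replicates 2 or 3, and 2 without naive day 14 replicate 1 (GATA4 joined, edgeR adjusted p = 0.0476) or naive day 7 replicate 1 (NKX2-5 joined, adjusted p = 0.046). Over the 3 ages it was 0 to 1 with single libraries left out. For the change between days 7 and 28 it was 0 to 1. In each fit without the 4 libraries that share the extra transcript, replicate 1 was the only MI heart of day 28. The cause of these shifts was not tested. Of the values of named members, 405 kept their direction and side of the threshold, 7 came past it and 4 lost it. Over all genes, the 1053 calls of day 28 were 2183 with DESeq2, 2 with the groups alone and 17 to 1370 with single libraries left out. The 681 calls over the 3 ages were 1639, 442 and 186 to 1082, and 415 without the 4 libraries. The 2 calls of the change with age were 695, 135 and 1 to 528, and 367 without the 4 libraries. Where the shared fit called 0 genes, leaving out the 4 libraries gave 2 on day 14 and the groups compared alone gave 4 between naive days 28 and 7. Of the day 28 calls, 687 were higher and 366 lower, against 830 and 290 with DESeq2 size factors and 550 and 450 without the 4 libraries. No paired analysis was possible because the replicate numbers follow accession order and the labels give each pig a number of its own.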
